A study of Mus musculus with 8 samples.

Results

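Heat shock and chaperone genes were followed across the cell types of the mouse iris and across pupil states. The set was chosen by gene symbol: every gene named as an Hspa, Hspb, Hspd, Hspe or Hsp90 gene or as a Dnaja, Dnajb or Dnajc gene, together with Hsf1, Hsf2 and Bag3, with pseudogenes left out. This rule took 75 of the 22873 genes in the deposited count matrices and used no measured value. By role the set held 13 HSP70 genes, 3 HSP90 genes, 7 small heat shock protein genes, 2 mitochondrial chaperonin genes, 4 DNAJA, 13 DNAJB and 28 DNAJC genes, 2 heat shock transcription factors, BAG3, and 2 genes, Hspbp1 and Hspbap1, that the pattern takes although they encode binding partners rather than chaperones.

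Molecular chaperones hold unfolded proteins and help them reach or regain their folded state. HSP70 proteins do this in cycles of ATP hydrolysis that J-domain proteins (DNAJA, DNAJB and DNAJC) start and nucleotide exchange factors such as BAG3 end. HSP90 acts on kinases, receptors and other clients late in folding, small heat shock proteins bind aggregation-prone proteins without ATP, and HSF1 is the main transcription factor of the heat shock response. In muscle, small heat shock proteins and BAG3 are known for their work on actin-crosslinking proteins that are unfolded by tension.

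The data were single nucleus RNA-seq (snRNAseq) from irises of wild-type female albino mice aged 6 to 8 weeks, and each library was made from a pool of 5 or 6 irises. The untreated group (3 libraries) received no drops, and its lighting is not stated. The dilated group (2 libraries) received drops of 5% phenylephrine, an agonist of alpha-1 adrenergic receptors that contracts the dilator muscle, with 1% cyclopentolate, a muscarinic blocker that relaxes the sphincter muscle, once an hour for 6 hours in the dark. The constricted group (3 libraries) received 5% pilocarpine, a muscarinic agonist that contracts the sphincter, on the same schedule in the light, and tissue was taken 30 minutes after the last dose in both. The agents, the lighting and the pupil state therefore change together and cannot be told apart.

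Upstream sequences of the members were searched for inverted repeats of the unit nGAAn, which HSF1 binds. The windows printed below were chosen because they held a match. RefSeq (GRCm38.p6) gave a promoter entry for 60 of the 75 members. In the 250 bases before the start site, a pair of facing units, GAANNTTC or TTCNNGAA (each its own reverse complement, so both strands are covered), occurred in 12 of these 60 members (20.0%) and in 14.5% of all 27025 genes with an entry. A run of 3 units, GAANNTTCNNGAA or TTCNNGAANNTTC, which contains the pair, occurred in 3 members, Dnajb6, Hspd1 and Hspe1, and in 0.514% of all these genes. The CArG box, bound by serum response factor, occurred in 1 member, Dnajc16, and in 1.62% of all these genes. A match describes letters in the window and is not a measured site. Of the 11 members that rose with dilation in the dilator muscle, 8 had an entry and 3 of those (Hspa1b, Hspb1 and Hspe1) held a pair. The other called members with an entry, Bag3, Dnajb5, Hspa4, Hspb7 and Hspb8, held none. Any part of HSF1 in the dilation results was not tested. The windows of Hspa1b (chr17:34959239-34959488, minus strand), its neighbouring copy Hspa1a (chr17:34972157-34972406, minus strand) and Hspb1 (chr5:135887669-135887918, plus strand) are printed 5′ to 3′ up to the base before the start, with the matching pairs in capitals, and for Hspe1 only the 30 bases around its match (chr1:55088053-55088082, plus strand) are given. The Hspa1b and Hspa1a windows are identical at 247 of 250 positions.
Hspa1b: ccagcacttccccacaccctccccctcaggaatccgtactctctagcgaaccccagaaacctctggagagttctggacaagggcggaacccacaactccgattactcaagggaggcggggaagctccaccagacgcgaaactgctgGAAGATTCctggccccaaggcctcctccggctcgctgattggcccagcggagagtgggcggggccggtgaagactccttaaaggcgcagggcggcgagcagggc
Hspa1a: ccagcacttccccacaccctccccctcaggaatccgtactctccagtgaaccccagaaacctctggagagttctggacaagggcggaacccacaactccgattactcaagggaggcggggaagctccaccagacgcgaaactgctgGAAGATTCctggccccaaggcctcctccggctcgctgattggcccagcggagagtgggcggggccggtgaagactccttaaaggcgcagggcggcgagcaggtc
Hspb1: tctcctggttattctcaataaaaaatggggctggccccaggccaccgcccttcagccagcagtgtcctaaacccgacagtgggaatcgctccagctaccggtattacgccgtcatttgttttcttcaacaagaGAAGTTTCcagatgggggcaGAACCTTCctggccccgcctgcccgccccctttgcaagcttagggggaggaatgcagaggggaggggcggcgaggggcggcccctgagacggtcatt
Hspe1: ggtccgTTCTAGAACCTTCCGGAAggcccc

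The 8 libraries held 34357 nuclei and 109565284 UMIs, with 5189437 to 25136427 UMIs per library and a median of 2775 to 4697.5 UMIs per nucleus. Levels are given as CPM, the UMIs of a gene scaled to 1000000 summed UMIs of one cell type in one library, with cell types as the authors deposited them, so a value is a share of that cell type's nuclear RNA and a change in the member cannot be told apart from a change in the rest. Nuclei of the dilator muscle numbered 11606, against 273 endothelial nuclei, so its levels carry the least counting error. The dilator label was checked against the markers Adra1a and Nos1, whose summed level in untreated libraries was 709 to 741 CPM in the dilator and at most 284 CPM in sphincter 2, the next type. Untreated replicate 1 and dilated replicate 1 shared 63 cell barcodes (4.26% of the former), 59 of them in the same cell type, and without the nuclei whose barcodes recur the count of members called in the dilator was again 11.

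All 75 members had UMIs in the untreated libraries, and 59 had them in each of the 10 cell types. Together they made up 2544 to 3198 CPM in the untreated cell types, so the summed level differed little between types, while single members differed. Dnajc1, which encodes a J-domain protein of the endoplasmic reticulum, had the highest CPM of any member in 9 of the 10 cell types, at 203 to 367 CPM. Nuclear counts include introns and so grow with gene length, and per kilobase of gene span the Dnajc1 level was only 1.03 to 1.86 CPM. On that per-length scale Hsp90ab1, the constitutive cytosolic HSP90, led all members in the dilator at 13.7 CPM per kb, followed by Dnajc4 at 9.77 CPM per kb and the endoplasmic reticulum HSP70 gene Hspa5 at 7.04 CPM per kb. No test was made between cell types here, because the types were defined from the same counts.

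Among members with at least 10 UMIs in their leading cell type, 3 stood at least 2-fold above every other cell type in mean level. Hspa12b, an HSP70 relative of endothelial cells, measured 330, 247 and 270 CPM in the untreated endothelial nuclei (282 ± 42.7, SD, n = 3, from 103 UMIs), which was 6.95 times the level of stroma 2 at 40.6 ± 6.89 CPM. Dnajb14, a J-domain protein of the endoplasmic reticulum membrane, measured 99.3, 159 and 210 CPM in leukocytes, and Dnajc13, an endosomal J-domain protein, measured 232, 288 and 279 CPM there. For Dnajb14 this was 3.12 times the next type, stroma 2, at 50.0 ± 1.43 CPM. For Dnajc13 it was 2.19 times the next type, stroma 1, at 122 ± 20.5 CPM. In each of these 3 cases every library of the leading type lay above every library of the next. The leukocyte values rest on 79 UMIs for Dnajb14 and 128 UMIs for Dnajc13. Untreated replicate 1 held only 13 leukocyte nuclei with 30205 UMIs of all genes, so its values rest on very few UMIs.

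Dnajc6, which encodes auxilin, the J-domain protein that lets HSP70 strip clathrin from coated vesicles, led in stroma 1 at 222 ± 15.7 CPM (SD, n = 3), 1.63 times the ciliary body (CB) at 136 ± 55.7 CPM. It was low in stroma 2, at 23.0, 21.6 and 24.9 CPM. Hspb6, a small heat shock protein of smooth muscle, led in sphincter 1 at 21.5, 11.2 and 9.03 CPM, which overlapped with sphincter 2 at 7.81 ± 1.68 CPM, and it had 0 UMIs in untreated leukocytes. Hspb8, the small heat shock protein that works with Bag3, was high in all 3 muscle types. Its mean was 90.8 ± 3.08 CPM for sphincter 2, 70.5 ± 5.79 CPM for sphincter 1 and 52.9 ± 6.06 CPM for the dilator. Stroma 1 was the lowest of the 10 types, at 2.92 ± 1.26 CPM. Hspb8 was not confined to muscle, with 309 UMIs in untreated iris PE. Bag3 itself had its highest mean in stroma 2, at 68.9 ± 7.57 CPM, and measured 31.4 ± 1.35 CPM in the dilator, 36.1 ± 13.1 CPM in sphincter 1 and 30.8 ± 8.07 CPM in sphincter 2.

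**Figure D1:**
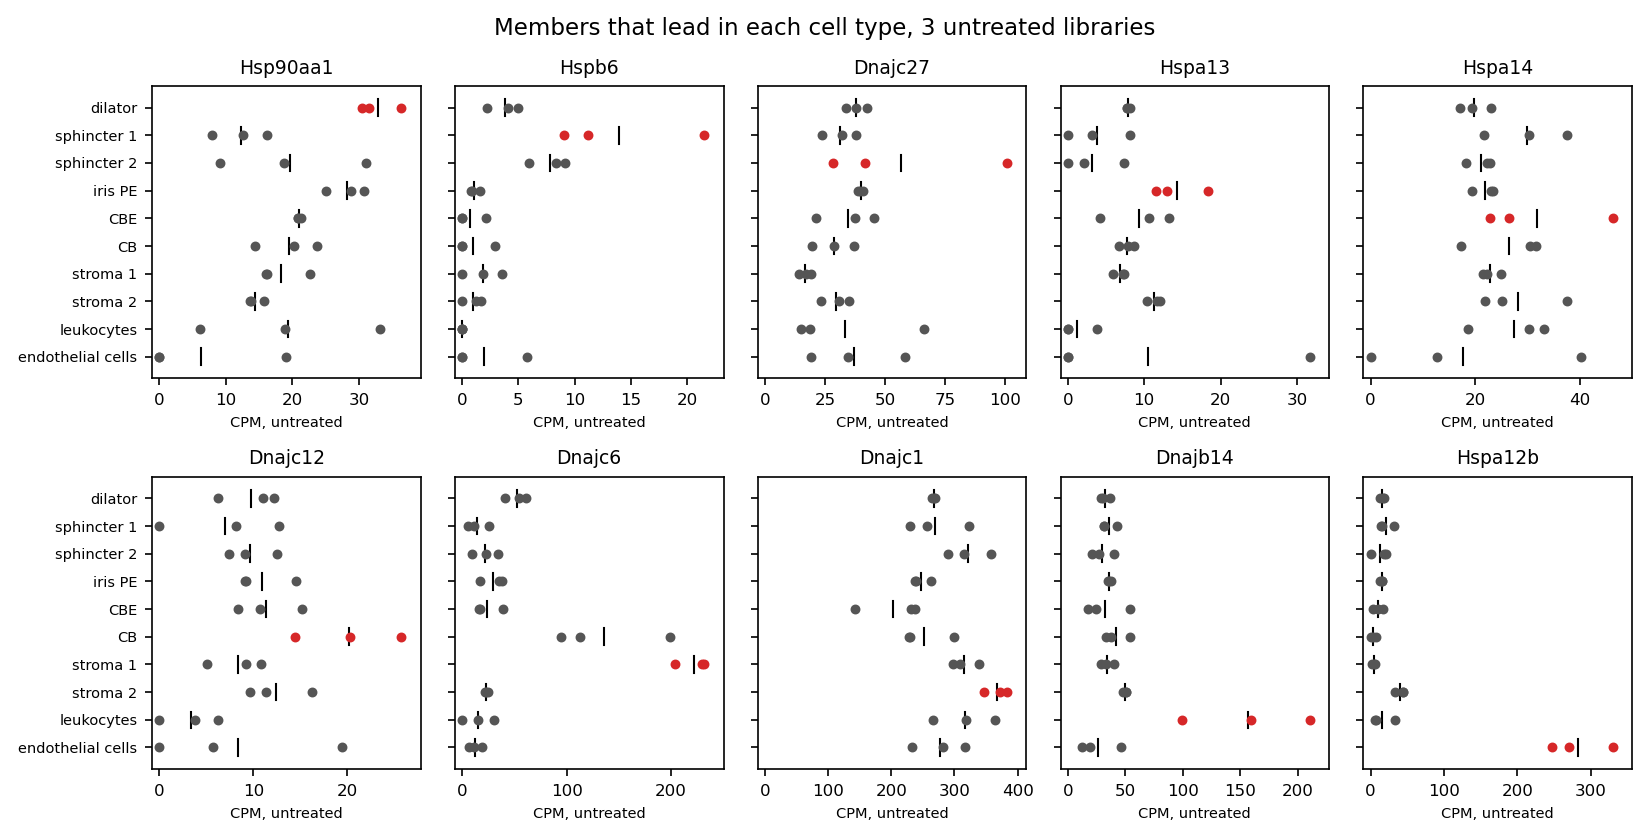
Level in CPM of the member that most stands out for each cell type, shown across all 10 cell types, with points for the 3 untreated libraries, a tick at their mean and the leading type in red. Hspa12b in endothelial cells (247 to 330 CPM) and Dnajb14 in leukocytes (99.3 to 210 CPM) lie clear of the next type, whereas the leading types of Hspa14, Hspa13 and Dnajc27 overlap with theirs.

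In the dilator muscle 11 members rose with dilation, and none fell by the same test. The 11 were the HSP70 genes Hspa1b, Hspa4, Hspa8 and Hspa13, the HSP90 gene Hsp90ab1, the small heat shock protein genes Hspb1, Hspb7 and Hspb8, the J-domain gene Dnajb5, the mitochondrial co-chaperonin Hspe1 and the HSP70 co-chaperone Bag3. Their fitted increases ran from 1.71-fold (Hspa4) to 6.08-fold (Hspa1b). A member was called when its absolute log2 fold change was above 0.6 and its adjusted p below 0.05 in edgeR's quasi-likelihood test across all genes with Benjamini-Hochberg adjustment. Of 66 members tested, the 11 called higher were 16.7%, beside 7.2% of all 15395 genes called higher, and 0 members were called lower beside 6.14% of all genes. Counted in either direction, 16.7% of the members stood beside 13.3% of all genes, and at an unadjusted p under 0.05, 25 members (37.9%) stood beside 28.3%. The median log2 fold change of the tested members was 0.22 and that of all genes was 0.02, with 44 members positive and 22 negative. The remaining 9 members had 7 to 43 dilator UMIs in all libraries together and did not pass the filter on low counts. Hspa1b, Dnajb5 and Hspb7, which had the largest fitted increases, passed that filter only through the dilated libraries, where they were high. Their calls, and their part in the 16.7%, are therefore tied to the filter.

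The stress-inducible HSP70 gene Hspa1b measured 1.25, 0.845 and 0.633 CPM in the untreated dilator, 1.55, 1.33 and 0.948 CPM in the constricted dilator, and 4.44 and 4.61 CPM in the dilated dilator. Both dilated libraries lay above all 6 others, although the level was low throughout and the untreated values rested on 2, 6 and 4 UMIs against 45 and 23. The log2 fold change over untreated was 2.60 (SE 0.46, edgeR adjusted p = 0.00256). Hspa1b passed the filter on low counts only through the dilated libraries, so its call is tied to the filter. Its near-identical copy Hspa1a was not tested, with 10 UMIs in untreated, 5 in constricted and 28 in dilated dilator nuclei, and reads may have been divided between the copies. Hspa8, the constitutive HSP70, measured 29.3, 22.0 and 25.0 CPM untreated and 38.6 and 68.1 CPM dilated (log2 fold change 1.29, SE 0.33, edgeR adjusted p = 0.0206). The dilated libraries were above every untreated library for Hspa8, but the constricted values of 19.4, 44.8 and 36.2 CPM overlapped with them.

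Hspa4, an HSP110-type nucleotide exchange factor for HSP70, measured 126, 128 and 132 CPM untreated and 150 and 233 CPM dilated, a log2 fold change of 0.77 (SE 0.22, edgeR adjusted p = 0.0306). Hspa13, a membrane-associated HSP70 relative, measured 8.10, 7.74 and 7.75 CPM untreated and 14.7 and 19.2 CPM dilated, a log2 fold change of 1.29 (SE 0.30, edgeR adjusted p = 0.0122). For both genes the dilated libraries were apart from the untreated ones, with replicate 2 the higher. The HSP70 genes of the endoplasmic reticulum and of mitochondria were not called, with log2 fold changes of 0.28 for Hspa5 (edgeR adjusted p = 0.620) and 0.48 for Hspa9 (edgeR adjusted p = 0.238). Of the 12 HSP70 genes tested 4 were called, beside 7.2% of all genes called higher, and the median log2 fold change of the 12 was 0.46. The 12 include Hspa1b, which passed the filter on low counts only through the dilated libraries. The count of 4 is therefore tied to the filter. Hspa2 had the most negative log2 fold change among the 12, at -1.40 (edgeR adjusted p = 0.0811, not called), and it is named here because of that value.

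Among the HSP90 genes, Hsp90ab1 (chr17:45567775-45573271, minus strand) measured 91.6, 69.8 and 64.5 CPM untreated, 61.2, 96.2 and 89.8 CPM constricted, and 142 and 202 CPM dilated. The dilated libraries lay above all 6 others, and the log2 fold change was 1.42 (SE 0.23, edgeR adjusted p = 0.00157), or 2.67-fold. The stress-inducible cytosolic HSP90 gene Hsp90aa1 measured 30.5, 31.5 and 36.4 CPM untreated and 33.9 and 62.5 CPM dilated, which overlapped, and it was not called (0.73, edgeR adjusted p = 0.115). Hsp90b1, the HSP90 of the endoplasmic reticulum, had a log2 fold change of 0.23 and was not called. In the main fit the called HSP90 gene was thus the constitutive cytosolic one. Hsp90ab1 and Hsp90aa1 were not tested against each other. Hsp90aa1 was called higher in the dilator with the replicate number, or the run of library numbers in the titles, as a fit term. It was called higher in iris PE with the run as a term. Shares of all genes called in these fits are not given.

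The small heat shock proteins had the largest median log2 fold change of any role with more than 1 tested member, at 1.04 (6 genes). Of these 3 were called, beside 7.2% of all genes called higher. The 6 include Hspb7, which passed the filter on low counts only through the dilated libraries. This ranking of roles is therefore tied to the filter. Hspb1 (chr5:135887919-135889563, plus strand), an actin-associated small heat shock protein, measured 11.8, 5.21 and 6.96 CPM untreated, 4.45, 7.09 and 11.4 CPM constricted, and 17.1 and 43.9 CPM dilated. The dilated libraries lay above the rest, the second far above the first, and the log2 fold change was 2.28 (SE 0.46, edgeR adjusted p = 0.00598). Hspb7, a small heat shock protein of heart and muscle, measured 1.25, 0.704 and 0.949 CPM untreated and 3.55 and 5.81 CPM dilated (log2 fold change 2.52, SE 0.52, edgeR adjusted p = 0.00675), from 13 and 65 UMIs. Hspb8 measured 59.8, 49.7 and 49.0 CPM untreated and 72.1 and 95.4 CPM dilated (log2 fold change 0.88, SE 0.18, edgeR adjusted p = 0.00746). Both were higher in each dilated library than in any untreated one. Hspb6 had a log2 fold change of 1.20 and missed the call at an edgeR adjusted p of 0.0522. Hspb11, which despite its name is a subunit of the intraflagellar transport machinery of cilia, had a log2 fold change of -0.50 and stayed short of the size needed.

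Bag3 (chr7:128523616-128546981, plus strand), the co-chaperone that links HSP70 to small heat shock proteins, measured 31.8, 29.8 and 32.4 CPM untreated, 32.5, 25.7 and 29.4 CPM constricted, and 56.2 and 53.1 CPM dilated. The 6 libraries that were not dilated stayed within 25.7 to 32.5 CPM, and both dilated libraries were above them and close together. The log2 fold change was 0.98 (SE 0.15, edgeR adjusted p = 0.00113). The RIKEN-named gene 2610306O10Rik overlaps Bag3 on the same strand in the annotation, as does Gm15553 for Hspa13. Bag3 was the 1 member of the 11 whose second dilated library was not above the first.

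Of the J-domain genes, Dnajb5 (chr4:42949814-42959425, plus strand), a cytosolic type B J-domain protein, measured 1.87, 1.27 and 1.26 CPM untreated, 1.74, 1.77 and 1.66 CPM constricted, and 6.91 and 7.01 CPM dilated. The 2 dilated libraries were nearly equal and lay above all 6 others, and the log2 fold change was 2.51 (SE 0.37, edgeR adjusted p = 0.000814), a 5.68-fold increase from 20 to 105 UMIs. Dnajb5 passed the filter on low counts only through the dilated libraries, so its fold change and its call are tied to the filter. All 10 tested DNAJB genes, Dnajb5 included, had positive log2 fold changes (median 0.42), but only Dnajb5 was called. Dnajb1, the partner of HSP70 in the heat shock response, had 0.87 (edgeR adjusted p = 0.158), and Dnajb9, a J-domain protein of the endoplasmic reticulum induced by unfolded proteins, had 1.02 (edgeR adjusted p = 0.0730). None of 4 DNAJA genes (median 0.06) and none of 24 DNAJC genes (median 0.03) was called, and Dnaja1 had 0.74 (edgeR adjusted p = 0.0899). Dnajc18 passed the adjusted p alone, at -0.46 (edgeR adjusted p = 0.0466).

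The mitochondrial co-chaperonin Hspe1 measured 16.8, 16.04 and 17.6 CPM untreated and 23.2 and 34.9 CPM dilated (log2 fold change 0.96, SE 0.30, edgeR adjusted p = 0.0486), above every untreated library. Its partner Hspd1, which overlaps Hspe1 on the opposite strand in the annotation, had 0.35 (edgeR adjusted p = 0.202) and was not called. The match printed for Hspe1 lies within the annotated Hspd1 gene. The transcription factor Hsf1 itself had a log2 fold change of -0.04 (SE 0.17, edgeR adjusted p = 0.919), with 40.8 ± 2.08 CPM untreated (SD, n = 3) and 35.0 ± 1.32 CPM dilated (SD, n = 2). Hsf2 had -0.29 and was not called. Neither factor passed the test at the level of nuclear RNA.

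**Figure D2:**
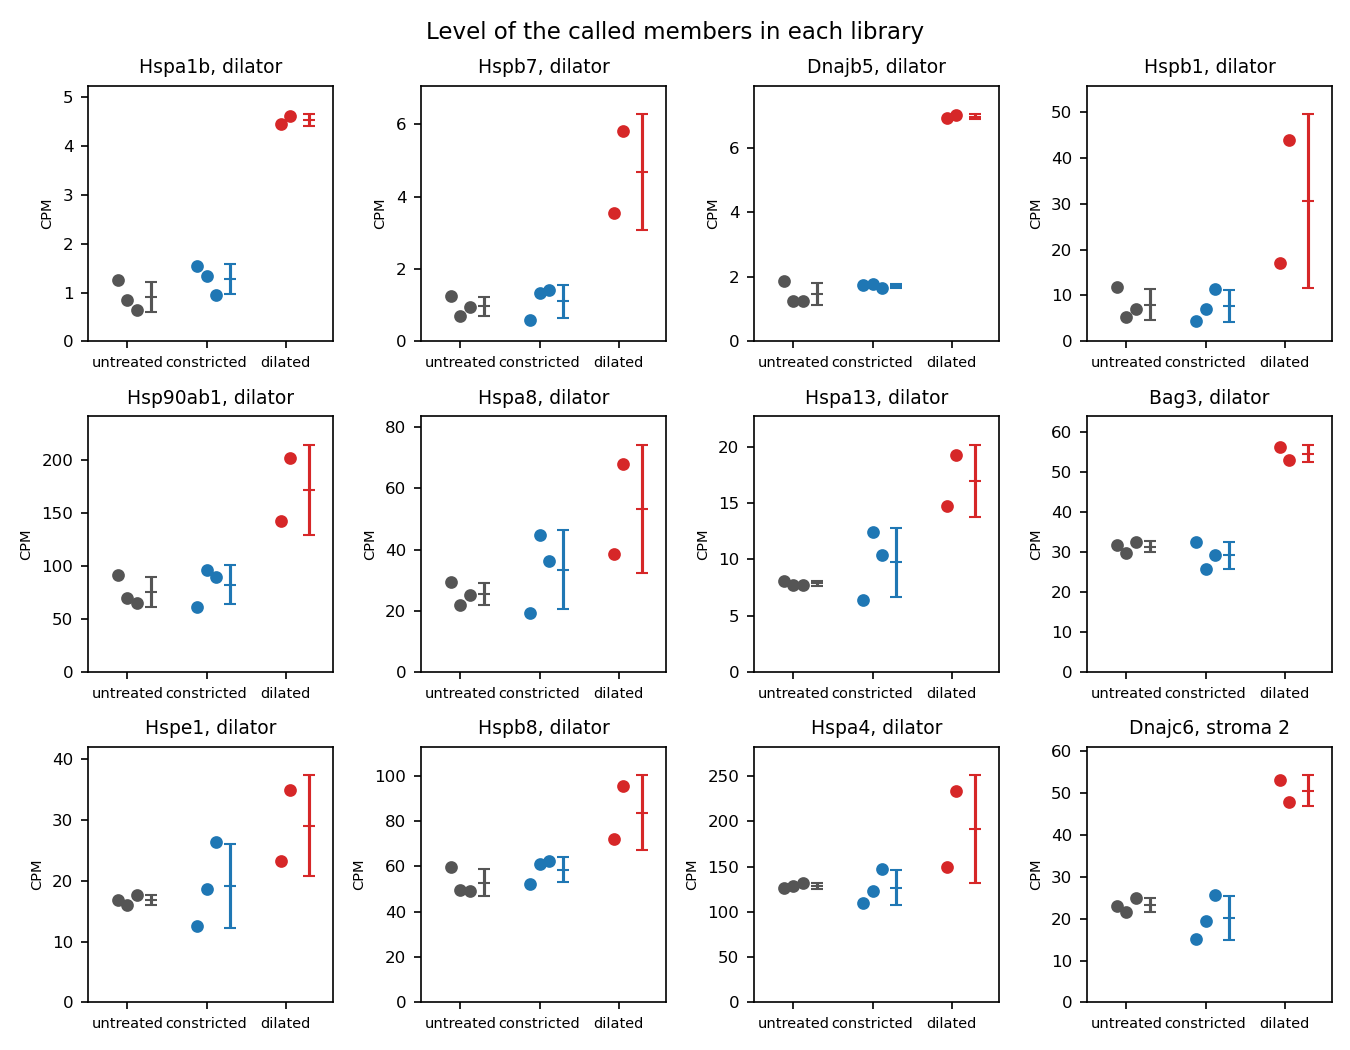
Level in CPM of the 11 members called in the dilator muscle and of Dnajc6 in stroma 2, with 1 point per library in the untreated, constricted and dilated groups and the mean ± SD as bars. The dilated points of Bag3 (53.1 and 56.2 CPM) and Dnajb5 (6.91 and 7.01 CPM) lie together above the rest, while those of Hspb1 (17.1 and 43.9 CPM) are far apart. Dnajb5, Hspa1b and Hspb7 passed the filter on low counts only through the dilated libraries.

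**Figure D3:**
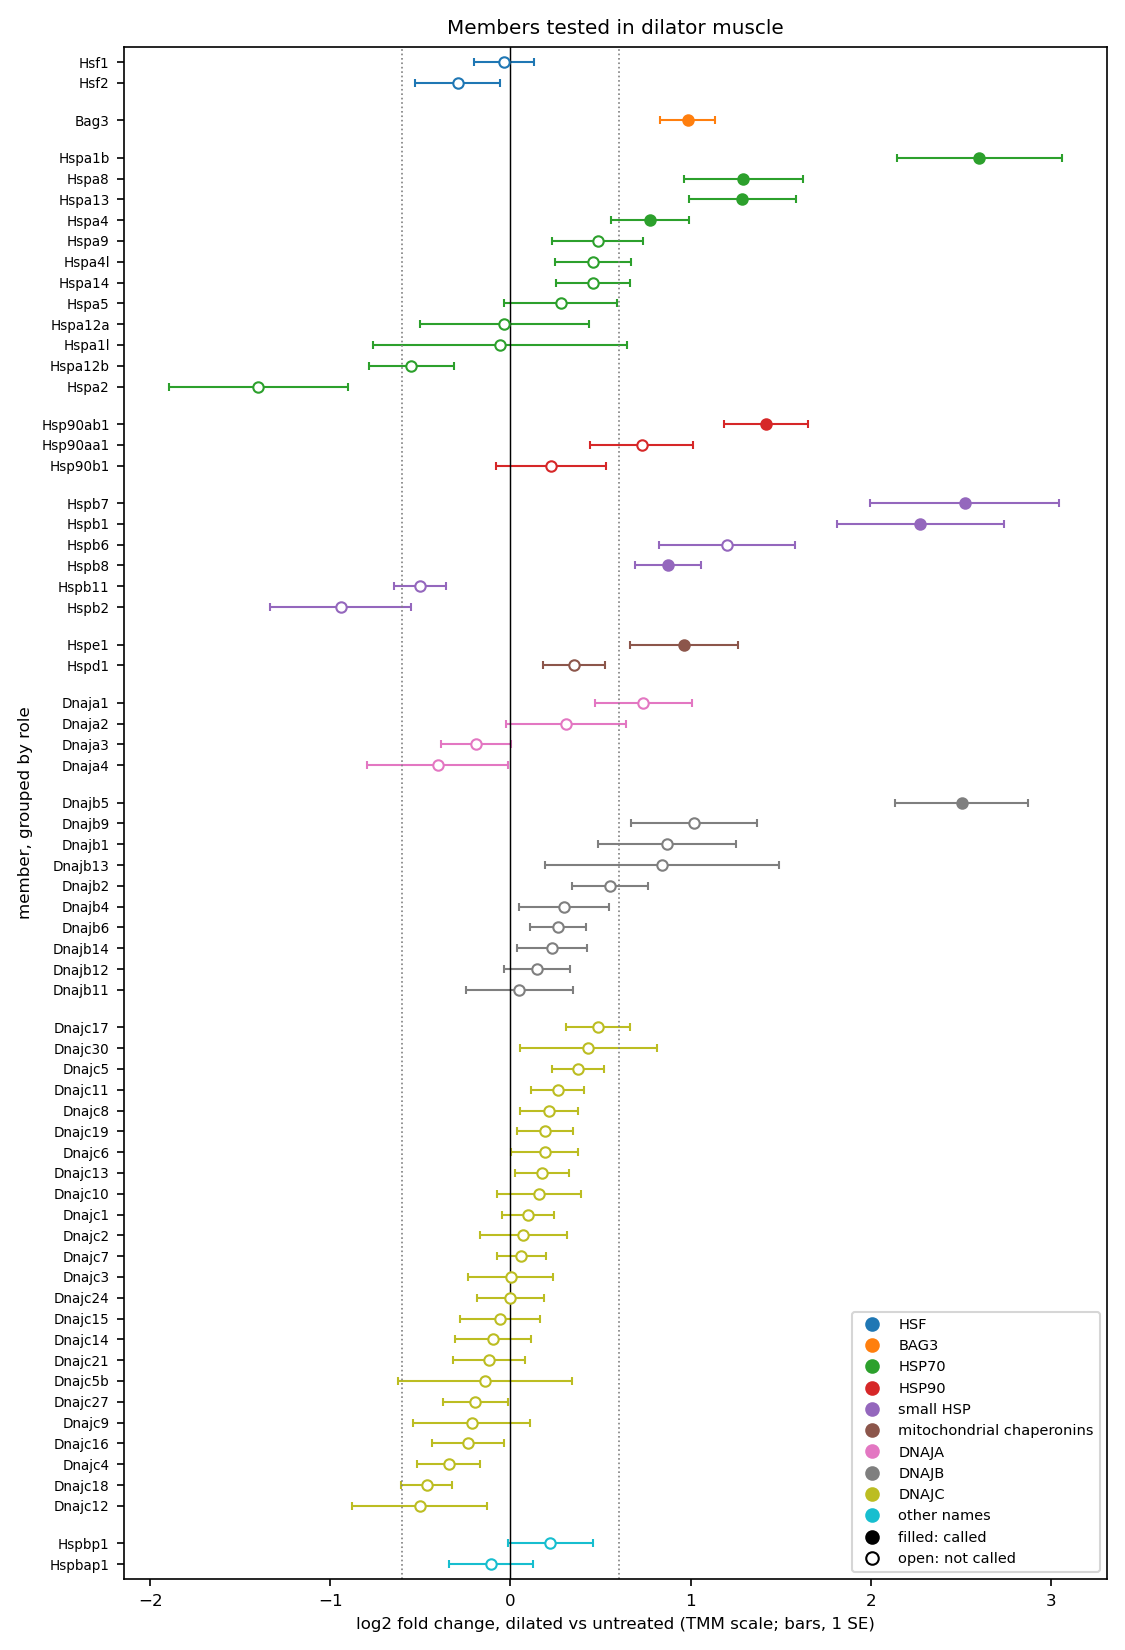
Log2 fold change, dilated over untreated, of the 66 members tested in the dilator muscle, grouped by role, with bars of 1 SE, filled points for the 11 called members and dotted lines at 0.6 and -0.6. The small heat shock proteins and HSP70 genes reach the highest values, at Hspb7 and Hspa1b. Both passed the filter on low counts only through the dilated libraries. The 24 DNAJC genes scatter around a median of 0.03.

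The size of the increase differed between the dilated libraries. In 10 of the 11 members dilated replicate 2 was above dilated replicate 1, and without replicate 2 the calls were 4, namely Bag3, Dnajb5, Hsp90ab1 and Hspa1b, with the lone remaining library assumed to vary like the other groups. Without untreated replicate 2 or untreated replicate 3 there were 6 and 7 calls, and without dilated replicate 1 there were 14. The library numbers in the titles fall into runs, 1 of which holds the first replicate of every group and another the remaining dilated and untreated libraries, and each library of a run can be set against its neighbours. Within the first run the log2 ratio of dilated to untreated CPM, without the scaling factors of the fit, was 0.82 for Bag3, 1.89 for Dnajb5, 0.63 for Hsp90ab1 and 1.83 for Hspa1b, and within the other run it was 0.77, 2.47, 1.59 and 2.64 in the same order. For Hspb1 these ratios were 0.53 and 2.85, for Hspa8 0.40 and 1.54, and for Hspa4 0.25 and 0.84. The untreated levels of Dnajb5 and Hspa1b in the first run were only 1.87 and 1.25 CPM, so their ratios rest on few UMIs. Both genes passed the filter on low counts only through the dilated libraries, and their calls here are tied to it. With the run as a term in the fit, 18 members were called, all higher, and the 11 were among them. After thinning to 1000 UMIs per nucleus, 7 members were called higher and Dnajc18 was called lower. Hspa4 and Hspe1 lost their calls after thinning, and Hspa1b and Hspb7 were not tested there. The shares of all genes called in these alternative fits are not given here. Their counts therefore show only which calls were kept.

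Against the constricted libraries, 9 of the same 11 members were called higher in the dilated dilator, which is 13.6% of the 66 tested beside 5.59% of all genes called higher and 10.5% in either direction. The 2 comparisons share the dilated libraries, and Hspa1b, Dnajb5 and Hspb7 passed the filter on low counts only through those. The log2 fold changes over constricted were 2.28 for Hspb7, 2.18 for Hspb1, 2.17 for Dnajb5, 1.97 for Hspa1b, 1.25 for Hsp90ab1, 1.06 for Bag3, 1.01 for Hspa13, 0.78 for Hspa4 and 0.69 for Hspb8. The edgeR adjusted p was smallest for Bag3, at 0.000889, and largest for Hspa13, at 0.0459. Hspa8 (0.88, edgeR adjusted p = 0.108) and Hspe1 (0.77, edgeR adjusted p = 0.124) were not called. Among fits that left out 1 library and kept both dilated ones, the fewest calls came without constricted replicate 1. There 5 of the 9 remained called, namely Bag3, Dnajb5, Hsp90ab1, Hspa1b and Hspb1. Without dilated replicate 2, which leaves a single dilated library, fewer remained, and Hsp90ab1, Hspa1b and Hspb1 were not among them. Thinning to 1000 UMIs per nucleus kept the calls of Bag3, Hsp90ab1, Hspa4 and Hspb8. Of the rest of the 9, Hspa1b and Hspb7 were not tested there, and Dnajb5, Hspb1 and Hspa13 were not called.

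Immediate early genes, which cells switch on within minutes of stimulation or handling, moved with the same libraries. The summed level of Fos, Fosb, Jun, Junb, Atf3, Egr1 and Ier2 in the dilator was 75.9 to 102 CPM untreated, 49.8 to 127 CPM constricted and 424 to 1376 CPM dilated, and in 9 of the 10 cell types every dilated library was above all others. Their part in the heat shock gene results was not tested. The 2 dilator markers summed to 338 to 483 CPM in the dilated dilator against 709 to 741 CPM untreated. Marker sums of other types in the dilator were not higher in the dilated libraries, with leukocyte markers at 2.4 to 5.1 CPM against 2.5 to 7.1 CPM untreated and sphincter markers at 81.2 to 98.5 CPM against 92.5 to 147 CPM.

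Outside the dilator, 1 further pair of member and cell type passed the test. In stroma 2, Dnajc6 (auxilin; chr4:101496648-101642799, plus strand) measured 23.0, 21.6 and 24.9 CPM untreated, 15.1, 19.4 and 25.6 CPM constricted, and 53.1 and 47.9 CPM dilated. Both dilated libraries lay above all 6 others, and the log2 fold change was 1.16 (SE 0.23, edgeR adjusted p = 0.0237) over untreated and 1.38 (SE 0.24, edgeR adjusted p = 0.0267) over constricted. This was 1 of 58 members tested there, beside 1.35% of all genes called higher and 1.73% called in either direction over untreated and 0.383% over constricted. In stroma 1, where auxilin is more abundant, the values were 230, 204 and 232 CPM untreated, 226, 227 and 227 CPM constricted, and 156 and 170 CPM dilated, a log2 fold change of -0.43 (edgeR adjusted p = 0.241, not called). The call in stroma 2 was lost when any 1 of the untreated or dilated libraries was left out, with log2 fold changes that stayed between 0.91 and 1.33 over all settings, and the log2 ratio within the runs of libraries was 1.21 and 1.04.

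In the other 8 cell types 0 of 280 member and cell type pairs were called by the main edgeR fit or by DESeq2, and 25 (8.93%) had an unadjusted p under 0.05, beside 9.25% of all genes in these types. Of all genes tested, 2.87% were called in sphincter 2, 1.95% in sphincter 1, 1.32% in leukocytes, 1.17% in stroma 1, 0.595% in iris pigment epithelium (PE), 0.0665% in CB, 0.0122% in ciliary body epithelium (CBE) and 0% in endothelial cells. The number of members that could be tested ran from 60 in iris PE to 4 in endothelial cells. Of the 11 members called in the dilator, Hspa1b, Hspb7 and Dnajb5 had too few UMIs to be tested in any other type.

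Hsp90ab1 was tested in all 9 other types and its log2 fold change was positive in each, from 0.15 in endothelial cells to 0.91 in stroma 1, with none called in the main fit. In iris PE it measured 99.5, 86.5 and 76.4 CPM untreated and 125 and 161 CPM dilated (0.77, edgeR adjusted p = 0.202), and in stroma 1 it measured 55.6, 45.4 and 53.0 CPM untreated and 86.3 and 103 CPM dilated (0.91, edgeR adjusted p = 0.0733). The dilated libraries were above the untreated ones in both types. Hspa8 was positive in all 6 other types tested (0.42 to 1.03) and Hspe1 in all 4 (0.33 to 0.49), again without a call. Bag3 differed from these, with 3 of 7 other types positive and a range of -0.29 to 0.57. With the run as a fit term, Hsp90ab1 was called higher in iris PE, sphincter 2 and stroma 1, and Hspa8 in iris PE. Without the filter on low counts, Hsp90ab1 was called in iris PE and stroma 1, and Hspa8 in iris PE and sphincter 2. Shares of all genes called in those fits are not given here.

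The dilation effect in the dilator was compared directly with that in each other type, in a fit over both types with a term for the library. Bag3 responded more in the dilator than in iris PE (difference in log2 fold change 1.21, SE 0.18, edgeR adjusted p = 4.05e-05), CBE (1.07, edgeR adjusted p = 0.0248), stroma 1 (1.05, edgeR adjusted p = 0.0131) and stroma 2 (1.04, edgeR adjusted p = 0.000823). Hsp90ab1 responded more in the dilator than in stroma 2 (1.15, edgeR adjusted p = 5.57e-05), sphincter 1 (0.85, edgeR adjusted p = 0.00719), CBE (0.81, edgeR adjusted p = 0.0339) and iris PE (0.61, edgeR adjusted p = 0.00102). Hspb1 responded more than in sphincter 1 (2.42, edgeR adjusted p = 2.83e-05), iris PE (1.52, edgeR adjusted p = 0.0102) and stroma 2 (1.35, edgeR adjusted p = 0.00133). Of 66 members 6 passed against iris PE, all in the direction of the dilator, which is 9.09% beside 6.03% of all genes in that direction and 12.2% in either. Against stroma 2, 5 members passed toward the dilator (4.48% of all genes in that direction, 8.13% in either) and Dnajc6 (-1.02) and Hspa5 (-0.65) passed toward stroma 2. Against CBE 3 of 61 members passed in either direction (4.92%, beside 4.18% of all genes). Against sphincter 1 and stroma 1, 4 of 60 members passed in each (6.67%, beside 6.71% and 5.73% of all genes). These member shares were close to those of all genes. The counts of 4 include Hspb7 for sphincter 1 and Dnajb5 for stroma 1, which were not tested in those types on their own. No member passed against CB, endothelial cells, leukocytes or sphincter 2, where 3.06%, 0.528%, 0.746% and 2.1% of all genes did.

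**Figure D4:**
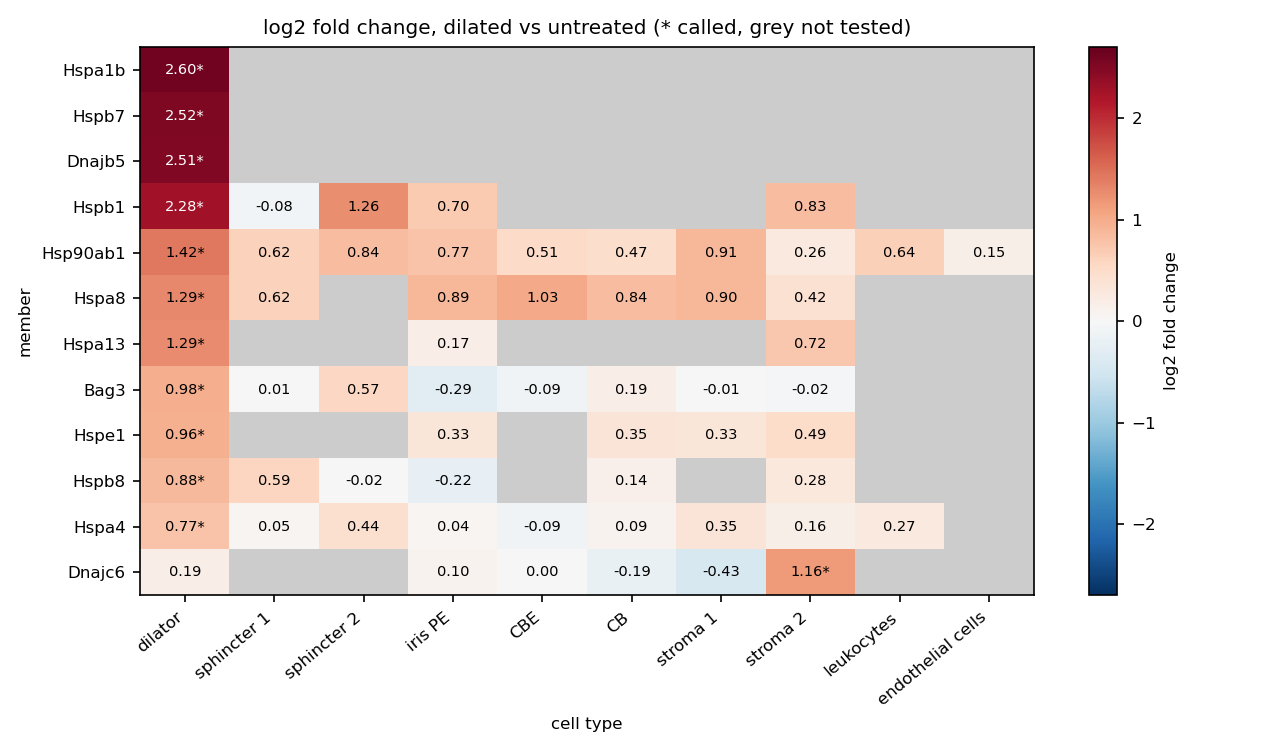
Log2 fold change, dilated over untreated, of the 12 members called in any cell type (rows) in the 10 cell types (columns), as colour, with an asterisk where the member was called and grey where it was not tested. Hsp90ab1 is positive in every column, Bag3 stands out in the dilator column, and the Dnajc6 asterisk is in stroma 2.

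No member passed the same test with pilocarpine. Of 404 member and cell type pairs, 0 were called for constricted against untreated by edgeR and 0 by DESeq2, with 14 (3.47%) at an unadjusted p under 0.05, beside 5.25% of all genes. Among all genes 0.0897% were called in sphincter 2, 0.0156% in stroma 2, 0.00708% in iris PE, 0.0065% in the dilator and none in the other 6 types. The smallest p values belonged to Hspa5, the endoplasmic reticulum HSP70 also known as BiP. In CBE Hspa5 measured 39.2, 32.1 and 37.4 CPM untreated, 48.7, 170 and 153 CPM constricted, and 47.0 and 37.0 CPM dilated (constricted over untreated 1.76, SE 0.38, edgeR adjusted p = 0.107). In stroma 1 it measured 25.1, 15.4 and 24.0 CPM untreated, 44.6, 77.5 and 40.4 CPM constricted, and 48.7 and 45.0 CPM dilated (1.32, SE 0.30, edgeR adjusted p = 0.464). The constricted libraries were above every untreated library in both types. Constricted replicate 2 had the highest Hspa5 level of all 8 libraries in CBE, stroma 1, stroma 2 (82.9 CPM), iris PE (96.7 CPM) and the dilator (86.4 CPM). Hspa5 in CBE was called when genes with low counts were kept in the fit, and again without constricted replicate 1.

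Related lists give the surroundings of the set in the dilator, dilated against untreated. Of 20 tested co-chaperones and HSF1-linked genes, 2 rose and 1 fell, beside 7.2% and 6.14% of all genes, and their median log2 fold change was 0.24. Hsph1, an HSP110 exchange factor, went from 20.1 to 23.7 CPM untreated to 35.7 to 37.4 CPM dilated (log2 fold change 0.97, SE 0.19, edgeR adjusted p = 0.00574), and Cdc37, which brings kinases to HSP90, from 11.8 to 17.9 CPM to 23.2 to 24.1 CPM (0.69, SE 0.21, edgeR adjusted p = 0.0485). Hsf4, the heat shock factor known from the lens, fell by 0.84 on the log2 scale (SE 0.20, edgeR adjusted p = 0.0154), from 58.0 to 66.6 CPM to 26.9 to 33.6 CPM. None of 7 tested subunits of the cytosolic chaperonin CCT was called, although their median was 0.54. Of the 2 alpha crystallins 0 were called. Of 17 tested genes of the unfolded protein response (median 0.31) 2 rose, again beside 7.2% of all genes, the transcription factor Ddit3 (1.30, SE 0.26, edgeR adjusted p = 0.00506) and the stress sensor Ern1 (0.85, SE 0.15, edgeR adjusted p = 0.00257). In other types the HSP90 activator Ahsa1 was 1 of 11 tested co-chaperones to rise in sphincter 1 (1.95% of all genes called), from 32.3 to 47.8 CPM to 84.5 to 102 CPM (1.10, SE 0.28, edgeR adjusted p = 0.0392), and the endoplasmic reticulum chaperone Calr was 1 of 18 tested genes of the unfolded protein response to rise in stroma 2 (1.73% of all genes called), from 52.6 to 61.3 CPM to 102 to 107 CPM (0.92, SE 0.20, edgeR adjusted p = 0.0393).

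The choice of scaling moved the whole dilator comparison. With library totals alone in place of trimmed-mean factors, the median log2 fold change of all genes fell by 0.18, and the share of called genes that were higher went from 54.0% to 32.2%. The members' median was then 0.03 beside -0.16 for all genes, with 9 members called higher and Dnajc18 and Hspb11 called lower. Plain CPM ratios in the dilator therefore lie below the fitted fold changes, as for Hsf1, whose log2 fold change was -0.22 on library totals and -0.04 in the fit.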

How the data were processed

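Nuclei were purified from pooled irises and libraries were made with the 10x Genomics 3′ kit. The authors aligned reads to mm10 with Cell Ranger 3.1.0 over exons and introns, removed nuclei with many mitochondrial transcripts or too few or too many transcripts, and deposited UMI counts per gene and nucleus with cell type labels from Seurat. The deposited tables also give a mitochondrial percent per nucleus, with library medians of 0.0216 to 0.0728, used only as a check. Raw counts were summed per library and deposited cell type. No doublet caller was run, and RNA free in solution was not removed.

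The sums were tested with edgeR 4.0.16 in R 4.3.3 (trimmed-mean factors, filterByExpr, quasi-likelihood fit, each cell type fitted over the 8 libraries with group as the term), with Benjamini-Hochberg adjustment over all genes tested in that cell type. SE is the log2 fold change over the root of F. Dilator and other types were compared in 1 fit with library and type by group terms, at an adjusted p of 0.05. DESeq2 1.42.0 was run as an alternative. On simulated data with 200 genes changed 4-fold, 98.5% were recovered for the dilator comparison (15111 genes, 4.83% of calls false) and 91% for the dilator against iris PE comparison (15875 genes, 5.70% false). The simulation gave every gene the same spread between libraries and no shared deviation within a run of library numbers. These rates therefore do not carry over to smaller changes or to the spread of the real libraries. P-values measure the spread between libraries, each a pool of irises from several mice, and the study describes the libraries as independent replicates.

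Genes named were the called members, HSF1, HSF2 and a list of well-known chaperones, and for levels the members with at least 10 UMIs in their leading type that most exceeded the next type, and a few further genes are named as chosen for their values. The members and lists were chosen with earlier results of these data known. Runs of library numbers were read from the titles, and which libraries shared a preparation batch is not given in the sources used here. Replicate numbers were not used to pair libraries, since same-numbered libraries in the dilator correlated (deviations from the group means) at -0.03 to 0.43, with 5 of 7 pairs above 0.1, and the 8 pairs of one run of library numbers at 0.18 to 0.43. Promoter windows and coordinates are from RefSeq GRCm38.p6 and GENCODE vM21, with sequences of chromosome 18 not used here.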

Additional observations from a re-analysis of the deposited data

Results flagged for a closer look

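The differences in dilation effect between the dilator muscle and another cell type (dilator minus the other type, log2, edgeR quasi-likelihood test with Benjamini-Hochberg adjustment over all genes) were set apart because the test of the difference itself passed. Against CBE they were 1.07 for Bag3, 0.81 for Hsp90ab1 and 0.72 for Hspa4. Against iris PE they were 1.52 for Hspb1, 1.21 for Bag3, 1.03 for Hspb8, 0.99 for Hspa13, 0.61 for Hsp90ab1 and 0.60 for Hspa4. Against sphincter 1 they were 2.42 for Hspb1, 0.85 for Hsp90ab1 and 0.69 for Hspa4. Against stroma 1 they were 1.05 for Bag3, 0.63 for Dnajc6 and -0.72 for Dnajc3, a J-domain protein of the endoplasmic reticulum. Against stroma 2 they were 1.35 for Hspb1, 1.15 for Hsp90ab1, 1.04 for Bag3, 0.74 for Hspa8 and 0.74 for Dnaja1, with -0.65 for Hspa5 and -1.02 for Dnajc6.

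Hspb7 (13 UMIs untreated and 65 dilated in the dilator, 16 and 1 in sphincter 1) and Dnajb5 (20 and 105 in the dilator, 8 and 0 in stroma 1) passed the filter on low counts only through the dilator, so no difference between types is drawn for them. Not every difference reflects a change that passed the test in either type: Hspa5, Dnajc3 and Dnaja1 were called in neither. The same holds for Dnajc6 in the comparison with stroma 1 (0.19 in the dilator and -0.43 in stroma 1, neither called).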

How the results depend on the processing

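Main counts were 11 members called in the dilator, 12 member and cell type pairs for dilated against untreated, 0 for constricted against untreated and 10 for dilated against constricted, and 6 members whose effect differed between dilator and iris PE. With the run of library numbers as a block these became 18 in the dilator, 30 pairs and, for dilated against constricted, 17. Same-numbered libraries did not all deviate together in the dilator (correlations of -0.03 to 0.43), and a fit with the replicate number as a block called 16 members in the dilator and 20, 1 and 16 pairs. Without the filter on low counts there were 20 pairs for dilated and 2 for constricted against untreated, both Hspa5. Thinning to 1000 UMIs per nucleus gave 8 members called in the dilator for dilated against untreated, 1 of them lower. It left 6 pairs for dilated against constricted and 3 members for the dilator and iris PE difference. Leaving out 1 library gave 4 to 14 members in the dilator, 4 to 18, 0 to 1 and 2 to 14 pairs, 3 to 7 members for the iris PE difference, and 3 to 4 members at least 2-fold above the next cell type, among those with at least 10 UMIs in their leading type. Shares of all genes called are not given for these alternative fits, so the counts show only how far the calls moved. For dilated against untreated in the dilator, Bag3, Dnajb5 and Hsp90ab1 kept their calls in all 17 settings, and Hspa1b in the 16 that tested it. These settings refit the same libraries. Dnajb5 and Hspa1b passed the filter on low counts only through the dilated libraries, so their kept calls are tied to it. Hspe1 lost its call in 8 settings and Hspa4 in 7, while Hspb1 and Hspb8 lost theirs only without dilated replicate 2.

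Of the named fold changes, 3 changed sign under some setting, none of them called: with 1 library left out Hspa5 ranged from -0.015 to 0.54 and Hsp90b1 from -0.24 to 0.59, both lowest without dilated replicate 2, and Hsf1 ranged from -0.073 to 0.0080 (0.0026 without dilated replicate 1) and was 0.13 after thinning. Of the log2 ratios between cell types, Hspa14 (CBE to sphincter 1) was -0.16 over all 8 libraries and -0.075 to 0.22 with 1 library left out, and Dnajc27 (sphincter 2 to iris PE) was -0.17 to 0.82, both lowest without untreated replicate 1. The cause was not tested. In endothelial cells only 4 members could be tested.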

Other observations

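Hspa5 and Dnajc3, chosen after their values were seen, had larger dilation values in the stroma than in the dilator, without a call. Hspa5 measured 25.1, 15.4 and 24.0 CPM in the untreated stroma 1 and 48.7 and 45.0 CPM in the dilated stroma 1 (log2 fold change 1.16, edgeR adjusted p = 0.0824), and in stroma 2 its log2 fold change was 0.88 (edgeR adjusted p = 0.249). Dnajc3 measured 95.1, 105 and 106 CPM in the untreated stroma 1 and 145 and 192 CPM in the dilated stroma 1 (0.72, edgeR adjusted p = 0.0995), beside 0.00031 in the dilator. With the run of library numbers as a block, Hspa5 was called in both stromal types and Dnajc3 in stroma 1.

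In sphincter 2 none of the 35 members tested was called with all libraries, beside 2.87% of all genes. With the run of library numbers as a block, Hsp90ab1 and Hspa9 were called higher there. Hspa9 was also called with the replicate number as a block and without constricted replicate 3. Shares of all genes called in those fits are not given here. The fit without dilated replicate 1 leaves a single dilated library, and its calls in sphincter 2 are not listed.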
